A study of Mus musculus with 8 samples.

Results

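Plasma cells are the antibody-secreting end stage of the B cell lineage. They were taken from 4 single-cell libraries of mouse bone marrow as cells with at least 5 UMIs of Jchain, at least 1 UMI of Xbp1 and at least 10% of their UMIs in 9 immunoglobulin constant genes. A UMI (unique molecular identifier) stands for 1 captured transcript molecule. The rule found 805 plasma cells among 22078 cells that passed limits of 500 genes, 1000 UMIs and 10% mitochondrial UMIs. Because the rule used Jchain, Xbp1 and the summed immunoglobulin genes, their levels describe the choice of cells and are not results. Expression is given below as CPM, the UMIs of a gene per 1000000 UMIs left after every immunoglobulin gene was taken out of the total.

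A plasma cell devotes most of its protein synthesis to secreted antibody. Xbp1 and Prdm1 drive that secretory state, and the unfolded protein response (UPR) supplies the endoplasmic reticulum with the chaperones and transport machinery that antibody folding needs. Bone marrow is the main home of long-lived plasma cells, which persist there on signals such as APRIL through the receptor BCMA (Tnfrsf17). Cells that have switched class carry IgG or IgA in place of IgM, and IgA plasma cells are known for their homing to mucosal tissue through receptors such as Ccr10.

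The study asked what hematopoietic Gli1, the factor through which hedgehog signals reach their target genes, does in the myelofibrosis caused by JAK2V617F, the activated form of the kinase JAK2 found in myeloproliferative neoplasms. In Gli1KO_JAK2V617F, the donor marrow lacked Gli1 and had been transduced with a JAK2V617F retrovirus. In GLI1KO_JAK2WT, the donor marrow also lacked Gli1 and carried the control JAK2WT retrovirus. In WT_JAK2V617F, wild-type marrow carried JAK2V617F, and in WT_JAK2WT wild-type marrow carried JAK2WT. Donors were 8 weeks old, their cells were harvested 48 hours before transplantation, and female B6.SJL recipients of 8 to 10 weeks had received 10.5 Gy. All 4 groups thus shared irradiation, transplantation and transduction, and marrow was taken 112 days later. Marrow of 3 mice per condition was depleted of CD11b, GR1, TER119, B220 and CD3 cells, pooled, and sorted as viable lineage-negative cells with and without GFP. The depletion removes most B220-positive B cells but not B220-negative plasma cells, the loading ratio of the sorted fractions is not given in the sources used here, and host cells can persist after irradiation. Each group is 1 library, and the hashing libraries that separate the 3 mice were not analysed here. No comparison between groups therefore has a replicate or a test, and every interval below is a 95% interval that covers counting error only.

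The libraries held 114847114 UMIs in Gli1KO_JAK2V617F, 84063880 in GLI1KO_JAK2WT, 59165347 in WT_JAK2V617F and 72458173 in WT_JAK2WT. Plasma cells were deeper in the Gli1 knockout libraries, with medians of 30589 UMIs in Gli1KO_JAK2V617F and 31179.5 in GLI1KO_JAK2WT, against 10480.5 in WT_JAK2V617F and 12209 in WT_JAK2WT. The other passing cells had medians of 13699.5 UMIs in Gli1KO_JAK2V617F, 15781 in GLI1KO_JAK2WT, 13151.5 in WT_JAK2V617F and 4000 in WT_JAK2WT, so WT_JAK2WT stood apart by its shallow other cells. Between 5 and 18 passing barcodes were shared by any pair of libraries, and 3 plasma cell barcodes also occurred in another library, none as a plasma cell in both. The 2 libraries with JAK2V617F held few plasma cells, 64 in Gli1KO_JAK2V617F and 32 in WT_JAK2V617F, and their values rest on those cells. The sexes of the donors also differed between the genotypes as far as transcripts show: among other passing cells, at least 2 UMIs of Y-linked genes without Xist were found in 3134 cells of Gli1KO_JAK2V617F and 1919 of GLI1KO_JAK2WT, against 0 in both wild-type libraries. Gli1 genotype and donor sex therefore cannot be told apart.

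The chosen cells carried the plasma cell programme in all 4 libraries. Mzb1, a chaperone of the endoplasmic reticulum that binds immunoglobulin heavy chains, was at 4924 CPM in Gli1KO_JAK2V617F, 3940.5 in GLI1KO_JAK2WT, 5389.9 in WT_JAK2V617F and 4125 in WT_JAK2WT. In the other cells it was at 3.69 CPM in Gli1KO_JAK2V617F, 5.08 in GLI1KO_JAK2WT, 5.06 in WT_JAK2V617F and 90.7 in WT_JAK2WT. Sdc1, which encodes the surface protein CD138, was at 251 CPM in Gli1KO_JAK2V617F, 314 in GLI1KO_JAK2WT, 295 in WT_JAK2V617F and 246 in WT_JAK2WT, and at most at 5.93 CPM in the other cells of any library. BCMA transcripts (Tnfrsf17) were at 201 CPM in Gli1KO_JAK2V617F, 253 in GLI1KO_JAK2WT, 306 in WT_JAK2V617F and 259.8 in WT_JAK2WT. The regulators Prdm1 and Irf4 were detected in every library, Prdm1 at 80.5 CPM in Gli1KO_JAK2V617F, 67.1 in GLI1KO_JAK2WT, 72.6 in WT_JAK2V617F and 91.9 in WT_JAK2WT. Pax5, the factor that holds B cell identity and that Prdm1 represses, had no UMI in the plasma cells of 3 libraries and 6.60 CPM in WT_JAK2WT. The label of plasma cells was borne out by its markers in each library.

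Outside the rule, the 20 genes with the steepest plasma cell levels over other cells in all 4 libraries included Derl3, which extracts misfolded proteins from the endoplasmic reticulum, Txndc5, a disulfide isomerase, the lymphocyte receptor Slamf7, the coactivator Pou2af1 and the elongation factor partner Eaf2. Derl3 was at 675 CPM in Gli1KO_JAK2V617F, 625 in GLI1KO_JAK2WT, 855 in WT_JAK2V617F and 479 in WT_JAK2WT in plasma cells, and at 1.11 CPM in Gli1KO_JAK2V617F, 2.29 in GLI1KO_JAK2WT, 1.47 in WT_JAK2V617F and 3.24 in WT_JAK2WT in the other cells. The antiprotease Slpi and the surface protein Ly6a (Sca-1) were among them as well. Plasma cells had been chosen by a contrast of the same cells, so these differences carry no test.

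Cells near the limits of the rule were few in 3 libraries. Members with under 10 Jchain UMIs or under 20% immunoglobulin UMIs numbered 5 in Gli1KO_JAK2V617F, 12 in GLI1KO_JAK2WT, 0 in WT_JAK2V617F and 33 in WT_JAK2WT. Cells left out that had at least 3 Jchain UMIs and at least 5% immunoglobulin UMIs numbered 12 in Gli1KO_JAK2V617F, 15 in GLI1KO_JAK2WT, 3 in WT_JAK2V617F and 210 in WT_JAK2WT. Of the 210, 86 lacked only the Xbp1 UMI, and their library was the shallow one. In WT_JAK2WT the members near the limit had a median immunoglobulin share of 14.1% and the cells just outside one of 8.82%.

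Plasma cells made up a smaller share of the JAK2V617F libraries than of the JAK2WT libraries in both genotypes. They were 0.986% of passing cells in Gli1KO_JAK2V617F (64 of 6490, exact Clopper-Pearson interval 0.760 to 1.26%), against 9.80% in GLI1KO_JAK2WT (392 of 3999, 8.90 to 10.8%). In wild type they were 0.888% in WT_JAK2V617F (32 of 3602, 0.608 to 1.25%), against 3.97% in WT_JAK2WT (317 of 7987, 3.55 to 4.42%). The ratio of JAK2V617F over JAK2WT was 0.101 in Gli1 knockout marrow (interval 0.0775 to 0.131) and 0.224 in wild-type marrow (0.156 to 0.321). Gli1 knockout over wild type gave 1.11 with JAK2V617F (0.728 to 1.69), an interval that includes 1, and 2.47 with JAK2WT (2.14 to 2.85). The last ratio moved between 1.54 with a looser rule of membership and 3.15 with a stricter one. The ratio of JAK2V617F over JAK2WT in wild-type marrow was 0.147 with the looser rule, below its interval. A share of a sorted and depleted pool depends on how many other cells were loaded, so a smaller share and fewer plasma cells per mouse cannot be told apart here.

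IgM plasma cells were the scarcest class in the JAK2V617F libraries relative to their JAK2WT libraries. The heavy chain class of a cell was not used by the rule of membership. A class was given where 1 class held at least 80% of a cell's heavy constant UMIs and at least 10 of them, which left 7 of 805 cells mixed or low. IgA cells numbered 34 in Gli1KO_JAK2V617F, 36 in GLI1KO_JAK2WT, 22 in WT_JAK2V617F and 137 in WT_JAK2WT. IgM cells numbered 7 in Gli1KO_JAK2V617F, 318 in GLI1KO_JAK2WT, 8 in WT_JAK2V617F and 159 in WT_JAK2WT. IgG cells numbered 23 in Gli1KO_JAK2V617F, 35 in GLI1KO_JAK2WT, 2 in WT_JAK2V617F and 17 in WT_JAK2WT. No cell was classed as IgD or IgE. IgM cells were therefore 10.9% of plasma cells in Gli1KO_JAK2V617F (4.51 to 21.2%), against 81.1% in GLI1KO_JAK2WT (76.9 to 84.9%), and 25% in WT_JAK2V617F (11.5 to 43.4%), against 50.2% in WT_JAK2WT (44.5 to 55.8%). IgA cells were 53.1% in Gli1KO_JAK2V617F, against 9.18% in GLI1KO_JAK2WT, and 68.8% in WT_JAK2V617F, against 43.2% in WT_JAK2WT.

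**Figure D1:**
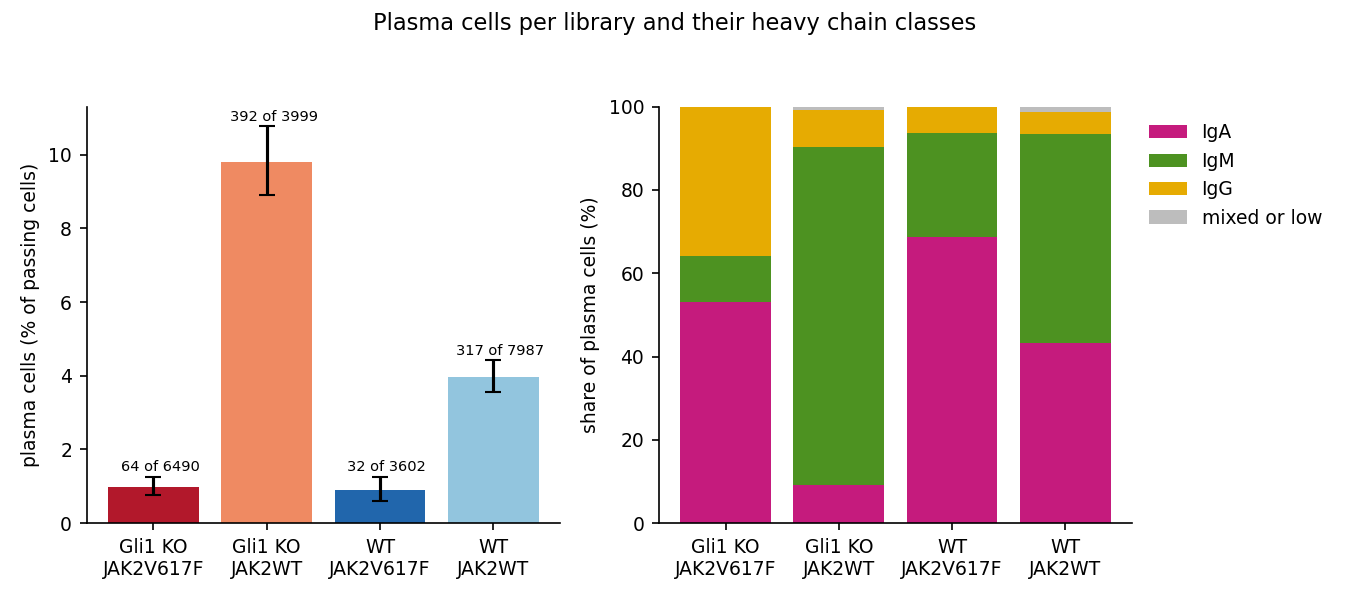
Left, plasma cells as a percentage of passing cells in each of the 4 libraries, with exact 95% binomial intervals and the counts above the bars. Right, the heavy chain classes as percentages of the plasma cells of each library. Plasma cells are 0.986% in Gli1KO_JAK2V617F, against 9.80% in GLI1KO_JAK2WT, and 0.888% in WT_JAK2V617F, against 3.97% in WT_JAK2WT, and IgM holds 10.9% of plasma cells in Gli1KO_JAK2V617F, against 81.1% in GLI1KO_JAK2WT, and 25% in WT_JAK2V617F, against 50.2% in WT_JAK2WT.

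Set against all passing cells, the 3 classes had different ratios of JAK2V617F over JAK2WT. IgM plasma cells were 0.108% of passing cells in Gli1KO_JAK2V617F, against 7.95% in GLI1KO_JAK2WT, a ratio of 0.0136 (0.00642 to 0.0287), and 0.222% in WT_JAK2V617F, against 1.99% in WT_JAK2WT, a ratio of 0.112 (0.0549 to 0.227). IgA plasma cells were 0.524% in Gli1KO_JAK2V617F, against 0.9002% in GLI1KO_JAK2WT, a ratio of 0.582 (0.365 to 0.928), and 0.611% in WT_JAK2V617F, against 1.72% in WT_JAK2WT, a ratio of 0.356 (0.227 to 0.558). IgG plasma cells had ratios of 0.405 in knockout marrow (0.240 to 0.684) and 0.261 in wild-type marrow (0.0603 to 1.13), where they rest on 2 cells of WT_JAK2V617F. The IgM interval lay well below the IgA interval in knockout marrow and ended just under it in wild-type marrow. Between genotypes with JAK2WT, the ratio of Gli1 knockout over wild type was 0.525 for IgA (0.364 to 0.756), 3.99 for IgM (3.31 to 4.81) and 4.11 for IgG (2.31 to 7.33).

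The IgG cells of Gli1KO_JAK2V617F were nearly uniform in subclass. Ighg1 led in 21 of its 23 IgG cells (91.3%, 72.0 to 98.9%), and Ighg2b and Ighg2c led in 1 cell each. In GLI1KO_JAK2WT, Ighg2c led in 16 of 35 IgG cells, Ighg2b in 10, Ighg1 in 5 and Ighg3 in 4. Both IgG cells of WT_JAK2V617F were Ighg2b, and in WT_JAK2WT Ighg2b led in 9 of 17, Ighg1 in 6, Ighg2c in 1 and Ighg3 in 1. The 3' ends of these constant genes are similar in sequence, so the split between subclasses is less certain than the class. Cells of 1 library can come from any of the 3 pooled mice, and whether 1 mouse gave most of the Ighg1 cells cannot be told apart from a shared feature of the group.

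Light chains were mostly kappa in each library. Lambda cells made up 9.38% of plasma cells in Gli1KO_JAK2V617F (6 of 64), 5.87% in GLI1KO_JAK2WT (23 of 392), 6.25% in WT_JAK2V617F (2 of 32) and 15.8% in WT_JAK2WT (50 of 317). In WT_JAK2WT the lambda cells were concentrated among IgA cells, at 43 of 137 (31.4%, 23.7 to 39.9%), against 7 of 159 IgM cells (4.40%, 1.79 to 8.86%) and 0 of 17 IgG cells, where 3 counts would be 17.6%. Neutrophil transcripts moved with this share: of the 25 IgA cells of WT_JAK2WT in which the 10 neutrophil markers held 1% or more of non-immunoglobulin UMIs, 18 were lambda, and those 25 had a median of 3715 UMIs, against 16081.5 in the other IgA cells. Without them lambda was at 25 of 112 IgA cells (22.3%, 15.0 to 31.2%). The part of those transcripts in the lambda share was not tested. In GLI1KO_JAK2WT lambda was at 4 of 36 IgA cells and 17 of 318 IgM cells.

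The plasma cells were varied in their antibody V genes, with repeated pairs in the JAK2WT libraries. A V gene was given where it held at least 80% of a cell's heavy or light V gene UMIs and at least 10 of them; near-identical V genes share reads, so single names are uncertain. In GLI1KO_JAK2WT, 84 of 253 cells with a light V gene used Igkv3-4 (33.2%), and 14 IgM cells combined it with Ighv1-53. Of 135 cells with both V genes in GLI1KO_JAK2WT, 78 belonged to 20 repeated combinations out of 77. Among these, Ighv11-2 with Igkv14-126 in 5 cells is known in mice as a pair of B-1a cells that bind phosphatidylcholine. In WT_JAK2WT, 38 of 82 cells with both V genes belonged to 13 repeated combinations out of 57, led by Ighv10-1 with Igkv3-4 in 8 cells. In Gli1KO_JAK2V617F, 3 of 16 cells shared Ighv5-9 with Iglv1, all of them IgA, and in WT_JAK2V617F none of 7 cells shared a combination. Igkv3-4 led the light V genes in GLI1KO_JAK2WT only. Iglv1 led with 6 of 21 cells in Gli1KO_JAK2V617F, 4 of 12 in WT_JAK2V617F and 26 of 171 in WT_JAK2WT.

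IgA and IgM plasma cells of the same library differed 2-fold in few genes. Class sums were compared inside the 2 libraries with at least 10 cells of both classes, GLI1KO_JAK2WT (36 IgA and 318 IgM cells) and WT_JAK2WT (137 IgA and 159 IgM cells). A difference of 2-fold in both, with 10 CPM added to each value, was reached by 6 of 1215 genes in the direction of IgA (0.494%) and by 7 in the direction of IgM (0.576%). In GLI1KO_JAK2WT alone 20 genes were 2-fold higher in IgA cells (1.65%) and 23 lower (1.89%), and in WT_JAK2WT alone 13 were higher (1.07%) and 26 lower (2.14%). The planned test needed 3 such libraries and was not run. Ccr10, the receptor for mucosal chemokines (ENSMUSG00000044052, GRCm38 chromosome 11, 101172997 to 101175443), was at 236 CPM in Gli1KO_JAK2V617F, 325 in GLI1KO_JAK2WT, 246 in WT_JAK2V617F and 185 in WT_JAK2WT in IgA cells. In IgM cells it was at 8.24 CPM in Gli1KO_JAK2V617F, 18.1 in GLI1KO_JAK2WT, 0 in WT_JAK2V617F and 34.1 in WT_JAK2WT. The log2 ratio of IgA over IgM for Ccr10 was 3.58 in GLI1KO_JAK2WT and 2.15 in WT_JAK2WT. Without the cells of 1% or more neutrophil marker UMIs, Ccr10 was at 209.9 CPM in IgA cells, against 36.4 CPM in IgM cells of WT_JAK2WT. Itgb7, the integrin subunit that pairs for gut homing, was at 143 CPM in IgA cells, against 43.8 in IgM cells of GLI1KO_JAK2WT, and at 139 in IgA cells, against 27.0 in IgM cells of WT_JAK2WT. Vpreb3, a surrogate light chain family member, was at 206 CPM in IgA cells, against 24.6 in IgM cells of GLI1KO_JAK2WT, and at 212 in IgA cells, against 27.0 in IgM cells of WT_JAK2WT.

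Genes of the IgM side were led by Chst1, a sulfotransferase of keratan sulfate and related glycans (ENSMUSG00000027221, GRCm38 chromosome 2, 92599707 to 92615250). In IgA cells Chst1 was at 128 CPM in Gli1KO_JAK2V617F, 44.7 in GLI1KO_JAK2WT, 7.93 in WT_JAK2V617F and 10.9966 in WT_JAK2WT. In IgM cells it was at 223 CPM in Gli1KO_JAK2V617F, 345 in GLI1KO_JAK2WT, 43.6 in WT_JAK2V617F and 226 in WT_JAK2WT, so it was higher in IgM cells of each library, with 2 UMIs or fewer behind both values of WT_JAK2V617F. In IgG cells it was at 134 CPM in Gli1KO_JAK2V617F, 387 in GLI1KO_JAK2WT and 254 in WT_JAK2WT, so it was nearer to IgM than to IgA cells in GLI1KO_JAK2WT and WT_JAK2WT and nearer to IgA cells in Gli1KO_JAK2V617F. Ggh, a lysosomal hydrolase of folates, had a log2 ratio of IgA over IgM of -2.53 in GLI1KO_JAK2WT and -2.13 in WT_JAK2WT, and the transcription factor Irf8 had -2.24 in GLI1KO_JAK2WT and -0.69 in WT_JAK2WT. The median log2 ratio over UPR and chaperone genes was -0.09 in GLI1KO_JAK2WT and 0.02 in WT_JAK2WT, beside -0.07 over all genes in GLI1KO_JAK2WT and 0.00 in WT_JAK2WT. MHC class I genes had medians of -0.37 in GLI1KO_JAK2WT and -0.46 in WT_JAK2WT.

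Slpi, the secretory leukocyte protease inhibitor (ENSMUSG00000017002, GRCm38 chromosome 2, 164354070 to 164389095), differed widely between the libraries. It was at 42382 CPM in Gli1KO_JAK2V617F, 5329 in GLI1KO_JAK2WT, 9831 in WT_JAK2V617F and 3745 in WT_JAK2WT, and at no more than 355 CPM in the other cells of any library. The fold of JAK2V617F over JAK2WT was 7.95-fold (95% counting interval 7.82 to 8.09) in knockout marrow and 2.62-fold (2.50 to 2.76) in wild-type marrow. Gli1 knockout over wild type was 4.31-fold (4.12 to 4.52) with JAK2V617F and 1.42-fold (1.39 to 1.46) with JAK2WT. It was detected in 62 of 64 plasma cells of Gli1KO_JAK2V617F, 371 of 392 of GLI1KO_JAK2WT, 26 of 32 of WT_JAK2V617F and 275 of 317 of WT_JAK2WT.

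The level of Slpi in Gli1KO_JAK2V617F was carried by its IgG cells. These had 107726 CPM in sum and 87828 CPM in the median cell, and 21 of the 23 were above 10000 CPM. IgG cells were at a median of 4531 CPM in GLI1KO_JAK2WT, with 11 of 35 above that level, and 11934 CPM in WT_JAK2WT, with 10 of 17 above it. IgA cells had medians of 3819 CPM in Gli1KO_JAK2V617F, 1508 in GLI1KO_JAK2WT, 2837 in WT_JAK2V617F and 1237 in WT_JAK2WT. IgM cells had medians of 6161 CPM in Gli1KO_JAK2V617F, 3425 in GLI1KO_JAK2WT, 847 in WT_JAK2V617F and 1157 in WT_JAK2WT. IgG cells gave 84.3% of the Slpi UMIs of Gli1KO_JAK2V617F while they held 33.2% of its non-immunoglobulin UMIs. Without IgG cells Slpi was at 9950.2 CPM in Gli1KO_JAK2V617F, 4762 in GLI1KO_JAK2WT, 8927 in WT_JAK2V617F and 2556 in WT_JAK2WT, still higher in each JAK2V617F library than in its JAK2WT library. Among IgA cells alone the log2 ratio of Gli1 knockout over wild type with JAK2V617F was -0.28, against 2.11 over all plasma cells. Ighg1 cells had medians of 57293 CPM in Gli1KO_JAK2V617F (21 cells), 6774 in GLI1KO_JAK2WT (5 cells, 2 of them above 10000 CPM) and 34217 in WT_JAK2WT (6 cells, all above it), and the 16 Ighg2c cells of GLI1KO_JAK2WT had a median of 5459.8 CPM.

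Cldn7, a tight junction claudin, and Ovol3, a zinc finger factor of the Ovo family, lay with Slpi in the IgG cells of Gli1KO_JAK2V617F. Cldn7 (ENSMUSG00000018569) was at 212 CPM in Gli1KO_JAK2V617F, 26.8 in GLI1KO_JAK2WT, 36.3 in WT_JAK2V617F and 10.4 in WT_JAK2WT over all plasma cells, and at 608 CPM in the Ighg1 cells of Gli1KO_JAK2V617F, 194 in those of GLI1KO_JAK2WT and 156 in those of WT_JAK2WT. Ovol3 was at 114 CPM in Gli1KO_JAK2V617F, 1.92 in GLI1KO_JAK2WT, 72.6 in WT_JAK2V617F and 0 in WT_JAK2WT. In Ighg1 cells Ovol3 was at 338 CPM in Gli1KO_JAK2V617F and 74.7 in GLI1KO_JAK2WT, and it had 0 UMIs in the 6 Ighg1 cells of WT_JAK2WT. In WT_JAK2V617F, 11 of its UMIs came from IgA cells and 3 from IgG cells.

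**Figure D2:**
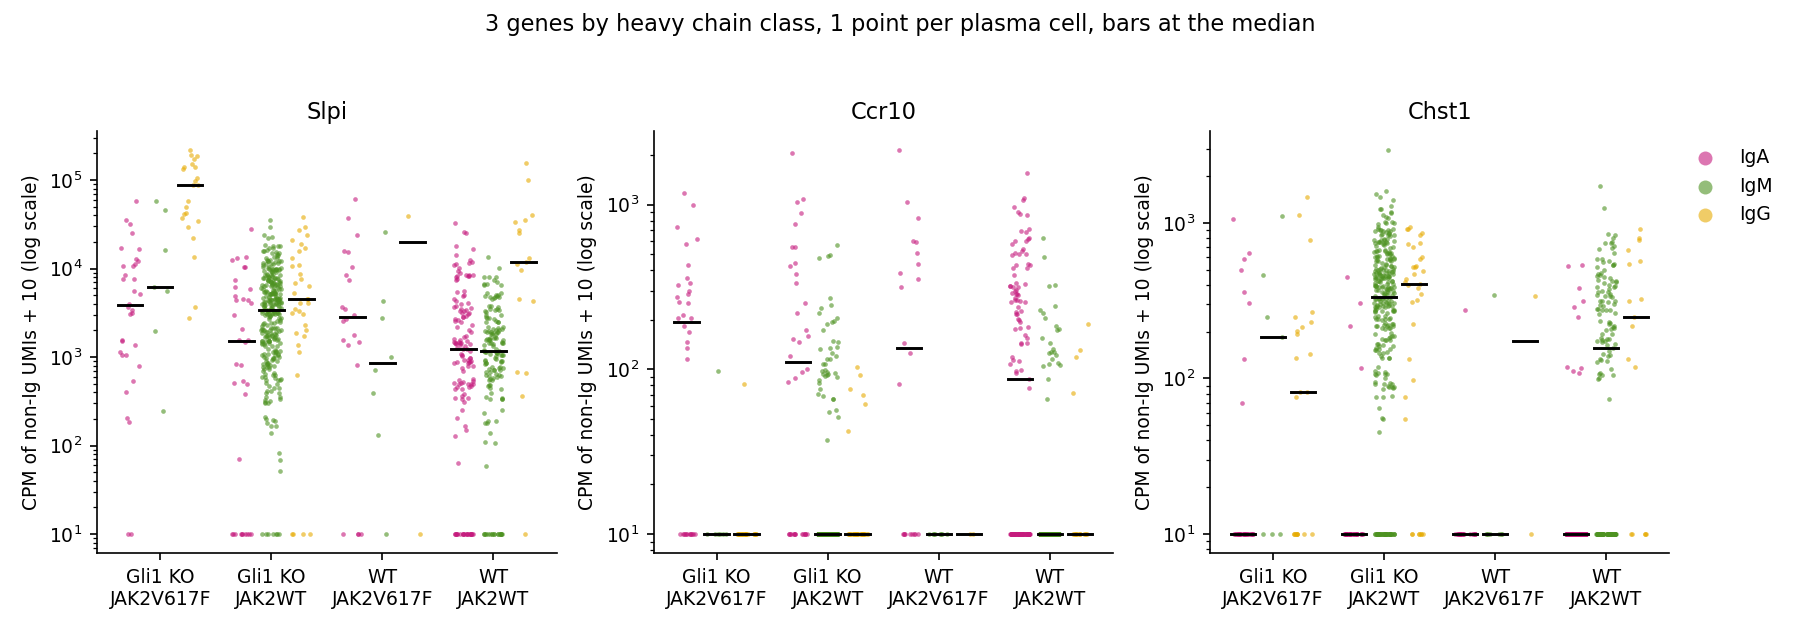
Levels of Slpi, Ccr10 and Chst1 in single plasma cells, split by library and heavy chain class, in CPM of non-immunoglobulin UMIs plus 10 on a log axis, with a bar at the median. Slpi is high in nearly all IgG cells of Gli1KO_JAK2V617F (median 87828 CPM), and Ccr10 is seen mainly in IgA cells. Chst1 is seen mainly in IgM and IgG cells of GLI1KO_JAK2WT and WT_JAK2WT.

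With JAK2V617F in Gli1 knockout marrow, 118 of 2735 measured genes (4.31%) were at least 2-fold apart from JAK2WT, 56 higher (2.05%) and 62 lower (2.27%). A measured gene had at least 50 CPM and 30 UMIs in the higher library. The counting interval excluded 1 for all 118 genes here and for 212 of 218 with JAK2V617F in wild-type marrow. For Gli1 knockout over wild type it did so for 187 of 194 with JAK2V617F and for all 52 with JAK2WT. The limits on fold and UMIs make this outcome likely beforehand, and the interval treats UMIs of 1 cell as independent, so it adds no support. The steepest higher genes were Ovol3, Slpi, Ifitm1, Ctla2a, Cldn7 and Sbno2. Sbno2, a transcriptional co-regulator downstream of Il10 and Stat3, was at 129 CPM in Gli1KO_JAK2V617F, against 17.9 CPM in GLI1KO_JAK2WT, and was detected in 30 of the 64 cells of Gli1KO_JAK2V617F. Ctla2a, a cysteine protease inhibitor, was at 118 CPM in Gli1KO_JAK2V617F, against 10.7 CPM in GLI1KO_JAK2WT, in 17 cells of Gli1KO_JAK2V617F. The steepest lower genes were Hspa1a, Camp, Elane, Ltb, Ggh and Irf8. Ltb, the membrane anchor of lymphotoxin, was at 26.4 CPM in Gli1KO_JAK2V617F, against 169 CPM in GLI1KO_JAK2WT. Irf8, which steers B cell fate and myeloid differentiation, was at 15.3 CPM in Gli1KO_JAK2V617F, against 112 CPM in GLI1KO_JAK2WT. The heat shock gene Hspa1a was at 8.33 CPM in Gli1KO_JAK2V617F, against 215 CPM in GLI1KO_JAK2WT. The granule genes Camp and Elane belong to neutrophils and their precursors, and the 10 neutrophil markers together held 1469 CPM in Gli1KO_JAK2V617F, against 5548 CPM in GLI1KO_JAK2WT, and their part in these values was not tested.

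With JAK2V617F in wild-type marrow, 218 of 1878 measured genes (11.6%) were at least 2-fold apart from JAK2WT, 68 higher (3.62%) and 150 lower (7.99%). The 32 cells of WT_JAK2V617F held 192953 non-immunoglobulin UMIs, and 30 UMIs there stood for 155 CPM, against 14.1 CPM in WT_JAK2WT, which limits the genes that could be counted as higher. At 100 CPM or more in the higher library the split was 68 higher and 61 lower. The steepest higher genes were Ifitm1, Sbno2, Smarcb1, S100a9, S100a8 and Grina. Sbno2 was at 306 CPM in WT_JAK2V617F, against 17.4 CPM in WT_JAK2WT, in 10 cells of WT_JAK2V617F, and 1 cell gave 42.4% of its UMIs there. Ifitm1, an interferon-induced membrane protein, was at 1094 CPM in WT_JAK2V617F, against 22.6 CPM in WT_JAK2WT, and 1 cell gave 44.1% of its UMIs in WT_JAK2V617F. S100a8, a neutrophil alarmin, was at 11583 CPM in WT_JAK2V617F, against 3477 CPM in WT_JAK2WT, and 1 cell gave 69.2% of its UMIs in WT_JAK2V617F. Its partner S100a9 was at 13076 CPM in WT_JAK2V617F, against 3801 CPM in WT_JAK2WT, with 70.2% from 1 cell in WT_JAK2V617F. The neutrophil markers together held 31407 CPM in WT_JAK2V617F, against 12993 CPM in WT_JAK2WT. Without plasma cells in which those markers held 1% or more of non-immunoglobulin UMIs, the log2 ratio of S100a9 was -0.03. The steepest lower genes were Elane, Nkg7, Cdk6, Mpo, Irf8 and Laptm5. Cdk6, a kinase of the G1 phase, was at 10.4 CPM in WT_JAK2V617F, against 107 CPM in WT_JAK2WT, with 2 UMIs in WT_JAK2V617F, and Irf8 was at 20.7 CPM in WT_JAK2V617F, against 131 CPM in WT_JAK2WT.

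The JAK2V617F comparisons of the 2 genotypes come from 4 separate libraries, and 1728 genes were measured in both. In both, 8 genes were at least 2-fold higher (0.463%), Epcam, Gadd45b, Ifitm1, Rrm2, S100a6, Sbno2, Slpi and Zbp1, and 15 were at least 2-fold lower (0.868%). Zbp1, a sensor of nucleic acids induced by interferon, was at 272 CPM in Gli1KO_JAK2V617F, 106 in GLI1KO_JAK2WT, 254 in WT_JAK2V617F and 82.5 in WT_JAK2WT. Rrm2, the ribonucleotide reductase subunit of S phase, was at 101 CPM in Gli1KO_JAK2V617F, 30.3 in GLI1KO_JAK2WT, 166 in WT_JAK2V617F and 58.0 in WT_JAK2WT. Among the 15 lower genes, Elane, Mpo, Prtn3, Ctsg and Ms4a3 belong to neutrophil precursors. Elane was at 239 CPM in Gli1KO_JAK2V617F, 1229.8 in GLI1KO_JAK2WT, 187 in WT_JAK2V617F and 1140.5 in WT_JAK2WT in plasma cells and at 2782 CPM in Gli1KO_JAK2V617F, 4747 in GLI1KO_JAK2WT, 2481 in WT_JAK2V617F and 4396 in WT_JAK2WT in the other cells of the same libraries, where it was thus also lower with JAK2V617F. Single plasma cells reached 16771 CPM of Elane in GLI1KO_JAK2WT, and the medians of the plasma cells were closer, at 165 CPM in Gli1KO_JAK2V617F, against 211 CPM in GLI1KO_JAK2WT, and at 129 CPM in WT_JAK2V617F, against 570.4 CPM in WT_JAK2WT. For Mpo the median cell was at 187 CPM in Gli1KO_JAK2V617F, against 164 CPM in GLI1KO_JAK2WT, the opposite order to the sums. The part of RNA from other cells was not tested. The remaining lower genes included Irf8, Ltb, Zbtb20, Ly6e and Chst1. Ltb, Zbtb20 and Chst1 were lower in IgA than in IgM cells of both JAK2WT libraries, and the class mix differed between libraries. In IgA cells of knockout marrow, Chst1 was at 128 CPM with JAK2V617F, against 44.7 CPM with JAK2WT, the opposite order. In IgM and IgG cells of knockout marrow it kept the order of the sums. The part of the class mix in these values was not tested. Zbtb20, a zinc finger factor known to promote plasma cell longevity in mice, was at 117 CPM in Gli1KO_JAK2V617F, 328 in GLI1KO_JAK2WT, 135 in WT_JAK2V617F and 421 in WT_JAK2WT. Ly6a was at 1361 CPM in Gli1KO_JAK2V617F, 3179 in GLI1KO_JAK2WT, 1544 in WT_JAK2V617F and 2687 in WT_JAK2WT and the related Ly6e at 1048 CPM in Gli1KO_JAK2V617F, 2473 in GLI1KO_JAK2WT, 876 in WT_JAK2V617F and 1857 in WT_JAK2WT, both lower in each JAK2V617F library than in its JAK2WT library. Irf8 was compared within classes as well. In IgM cells it was at 24.7 CPM in Gli1KO_JAK2V617F, against 122 in GLI1KO_JAK2WT, and at 65.4 in WT_JAK2V617F, against 167 in WT_JAK2WT. In IgA cells it was at 19.4 CPM in Gli1KO_JAK2V617F, against 17.9 in GLI1KO_JAK2WT, and at 0 in WT_JAK2V617F, against 99.97 in WT_JAK2WT. In IgG cells it was at 4.19 CPM in Gli1KO_JAK2V617F, against 110.0 in GLI1KO_JAK2WT. The values of the JAK2V617F libraries rest on 7 UMIs or fewer per class, and among IgA cells of knockout marrow the log2 ratio was 0.08, against -2.27 over all plasma cells.

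**Figure D3:**
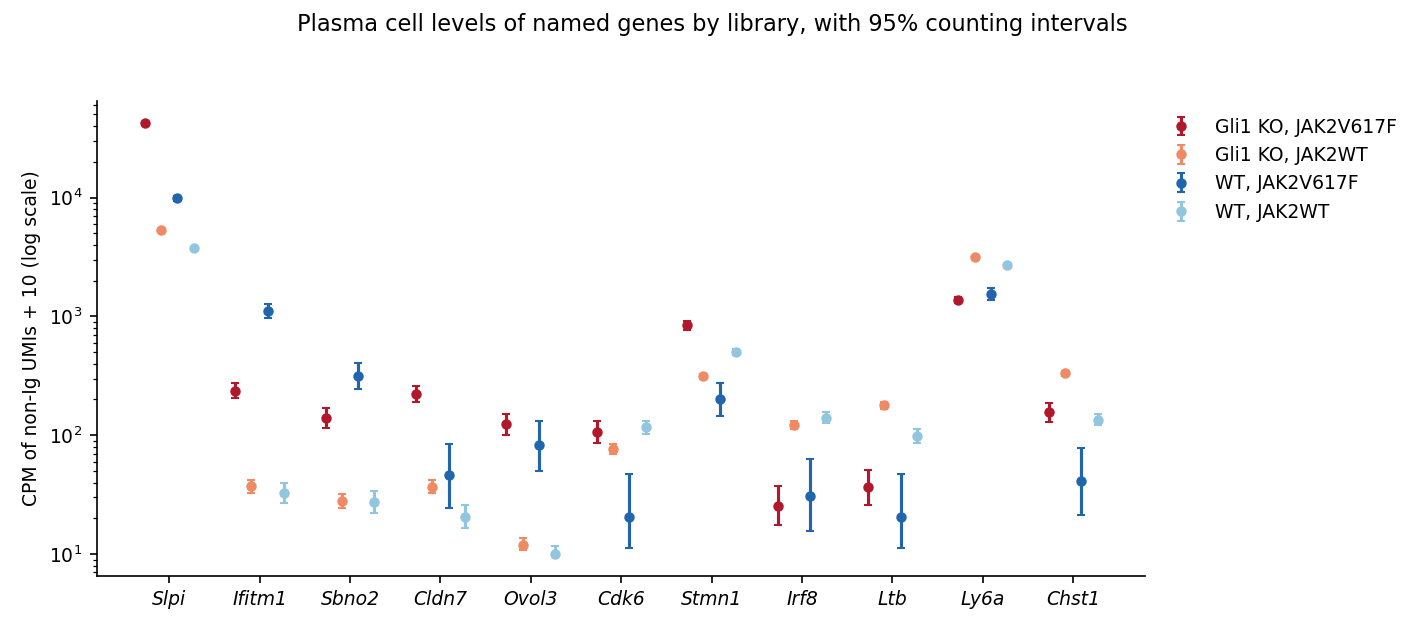
Levels of 11 named genes in the summed plasma cells of each library, in CPM plus 10 on a log axis, with exact 95% Poisson intervals. Slpi, Ifitm1 and Sbno2 are higher, and Irf8, Ltb, Ly6a and Chst1 lower, in each JAK2V617F library than in the JAK2WT library of the same genotype, while Cdk6 and Stmn1 go in opposite directions in the 2 genotypes. The sums do not separate the heavy chain classes, whose mix differs between libraries.

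The secretory machinery was followed through 36 genes of the UPR and the folding apparatus. The endoplasmic reticulum stress element, searched on both strands as CCAAT and CCACG with 9 bases of any kind between them, is the site read by Atf6 and Xbp1 with NF-Y at chaperone genes. It was found in 39 of 32851 promoters of the RefSeq table for GRCm38.p6 (0.119%), each running from 250 bases before to 50 after a gene's start. Of the 29 genes of the list with a promoter in that table, 9 held it (31.0%), and no promoter of the other 21 gene lists did. The 10 matches in these 9 genes are shown, and levels of Hspa5, Hsp90b1 and Creld2 among them follow below. Each match is read 5' to 3' on the strand that carries the motif, with its fixed letters in capitals.
Calr: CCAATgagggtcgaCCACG
Canx: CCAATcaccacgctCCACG
Creld2: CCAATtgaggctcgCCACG
Derl3: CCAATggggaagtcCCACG
Dnajc3: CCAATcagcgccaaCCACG
Hsp90b1, upstream match: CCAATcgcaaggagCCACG
Hsp90b1, downstream match: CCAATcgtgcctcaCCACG
Hspa5: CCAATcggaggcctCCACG
Pdia6: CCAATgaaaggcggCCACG
Syvn1: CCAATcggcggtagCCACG
The match of Hspa5 (BiP, the main chaperone of the endoplasmic reticulum) lies at chr2:34772025-34772043 and begins 65 bases before the start. Those of Hsp90b1 (GRP94) begin 212 and 107 bases before its start on chromosome 10, and that of Creld2, a secreted UPR target, begins 126 bases before its start at chr15:88819520-88819538. The Hspa5 and Hsp90b1 promoters, from chr2:34771840-34772139 (plus strand) and chr10:86705395-86705694 (minus strand), show where the element stands among the other bases, again in capitals, and in Hsp90b1 the downstream match is read on the opposite strand.
Hspa5 promoter: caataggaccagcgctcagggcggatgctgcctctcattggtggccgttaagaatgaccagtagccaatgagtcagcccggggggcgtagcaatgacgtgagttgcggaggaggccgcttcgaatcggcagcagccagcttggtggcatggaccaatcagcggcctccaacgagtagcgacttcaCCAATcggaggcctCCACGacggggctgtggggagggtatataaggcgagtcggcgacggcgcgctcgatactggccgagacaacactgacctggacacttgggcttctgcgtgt
Hsp90b1 promoter: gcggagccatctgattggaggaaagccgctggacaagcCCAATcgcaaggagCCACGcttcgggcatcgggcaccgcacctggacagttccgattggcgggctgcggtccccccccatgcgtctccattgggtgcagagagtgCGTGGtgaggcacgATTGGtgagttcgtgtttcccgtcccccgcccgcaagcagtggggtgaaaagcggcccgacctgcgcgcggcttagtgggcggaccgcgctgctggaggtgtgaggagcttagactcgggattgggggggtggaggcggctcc

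UPR and chaperone genes were higher with JAK2V617F in wild-type marrow as a list, with a median log2 ratio of 0.65 over its 36 measured genes, beside 0.05 over all 6014 genes of at least 20 CPM. A 2-fold difference was reached by 4 members in the higher direction and by 0 in the lower one, beside 6.02% and 7.05% of all genes. In knockout marrow the median was 0.08, beside 0.04 over all 5543 genes, with 0 members past 2-fold in the higher direction and 1 in the lower one, beside 1.86% and 1.97%. In all, 21 of the 36 were above 0 in both genotypes (58.3%) and 5 below 0 in both (13.9%), beside 29.2% and 26.1% of all 6397 genes measured in any library. These directions are those of summed UMIs, which single cells can set. For Hspa5 and Hsp90b1 in knockout marrow the median cell went the other way. The members with the element in their promoter had medians of 0.11 in knockout and 0.46 in wild-type marrow (9 genes), and those without it 0.07 in knockout and 0.75 in wild-type marrow (20 genes).

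Hspa5 was at 4314 CPM in Gli1KO_JAK2V617F, 3368 in GLI1KO_JAK2WT, 4535 in WT_JAK2V617F and 2520.5 in WT_JAK2WT. A single IgG cell of Gli1KO_JAK2V617F gave 63.4% of the Hspa5 UMIs there, so that value rests on 1 cell, while the highest cell gave 16.5% in WT_JAK2V617F. The median cell was at 1271 CPM of Hspa5 in Gli1KO_JAK2V617F, against 2569 CPM in GLI1KO_JAK2WT, the opposite order to the sums. The median was also lower in IgM, IgA and IgG cells taken alone. In wild-type marrow the median cell kept the order of the sums, at 4155 CPM in WT_JAK2V617F, against 1683 CPM in WT_JAK2WT. Hsp90b1 was at 5843 CPM in Gli1KO_JAK2V617F, 4219 in GLI1KO_JAK2WT, 6121 in WT_JAK2V617F and 5543 in WT_JAK2WT. The highest cell gave 42.0% of the Hsp90b1 UMIs of Gli1KO_JAK2V617F, and the median cell was at 3174 CPM in Gli1KO_JAK2V617F, against 3620 CPM in GLI1KO_JAK2WT, the opposite order to the sums. Creld2 was at 2047 CPM in Gli1KO_JAK2V617F, 1101 in GLI1KO_JAK2WT, 1918 in WT_JAK2V617F and 869 in WT_JAK2WT. These sums were higher with JAK2V617F in both genotypes, by 1.86-fold (95% counting interval 1.75 to 1.97) in knockout and 2.21-fold (1.97 to 2.47) in wild-type marrow. The part of single cells in the Creld2 sums was not tested. Edem1, which hands misfolded glycoproteins to degradation, was at 882 CPM in Gli1KO_JAK2V617F, 645 in GLI1KO_JAK2WT, 1643 in WT_JAK2V617F and 633 in WT_JAK2WT, a fold of 2.60-fold (2.29 to 2.94) in wild-type marrow. Ero1lb, an oxidase that drives disulfide bonds, was at 204 CPM in Gli1KO_JAK2V617F, 119.7 in GLI1KO_JAK2WT, 244 in WT_JAK2V617F and 77.3 in WT_JAK2WT. Herpud1, a scaffold of the degradation complex, was at 1219 CPM in Gli1KO_JAK2V617F, 1479 in GLI1KO_JAK2WT, 1436 in WT_JAK2V617F and 808 in WT_JAK2WT, and went in opposite directions in the 2 genotypes. The nucleotide exchange factor Hyou1 was the 1 member at least 2-fold lower in knockout marrow, at 62.5 CPM in Gli1KO_JAK2V617F, against 143 CPM in GLI1KO_JAK2WT.

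Genes of amino acid supply and the integrated stress response were above 0 in both genotypes in 15 of 22 cases, beside 29.2% of all genes, and below 0 in both in 1, beside 26.1%. Their medians were 0.33 in knockout marrow, with 4 genes at least 2-fold higher and 1 lower, and 0.36 in wild-type marrow, with 3 higher and 0 lower. Over all genes, 1.86% were higher and 1.97% lower in knockout marrow, and 6.02% higher and 7.05% lower in wild-type marrow, and the counts of the lists that follow stand beside these shares. Shmt2, the mitochondrial serine hydroxymethyltransferase, was at 119 CPM in Gli1KO_JAK2V617F, 51.8 in GLI1KO_JAK2WT, 114 in WT_JAK2V617F and 49.98 in WT_JAK2WT. Asns, asparagine synthetase, was at 140.2 CPM in Gli1KO_JAK2V617F, 83.1 in GLI1KO_JAK2WT, 135 in WT_JAK2V617F and 54.2 in WT_JAK2WT. Atf4, the factor that drives the response, was at 182 CPM in Gli1KO_JAK2V617F, 182 in GLI1KO_JAK2WT, 192 in WT_JAK2V617F and 207 in WT_JAK2WT, with little spread between libraries. Glycolysis genes had medians of 0.08 in knockout and 0.57 in wild-type marrow, where 3 of 17 were at least 2-fold higher. The pyruvate kinase Pkm was at 299 CPM in Gli1KO_JAK2V617F, 226 in GLI1KO_JAK2WT, 446 in WT_JAK2V617F and 154 in WT_JAK2WT. Proteasome genes had a median of 0.17 in both genotypes, and genes of traffic to the Golgi one of -0.19 in knockout and 0.44 in wild-type marrow. Oxidative phosphorylation genes lay at 0.12 in knockout and -0.10 in wild-type marrow.

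**Figure D4:**
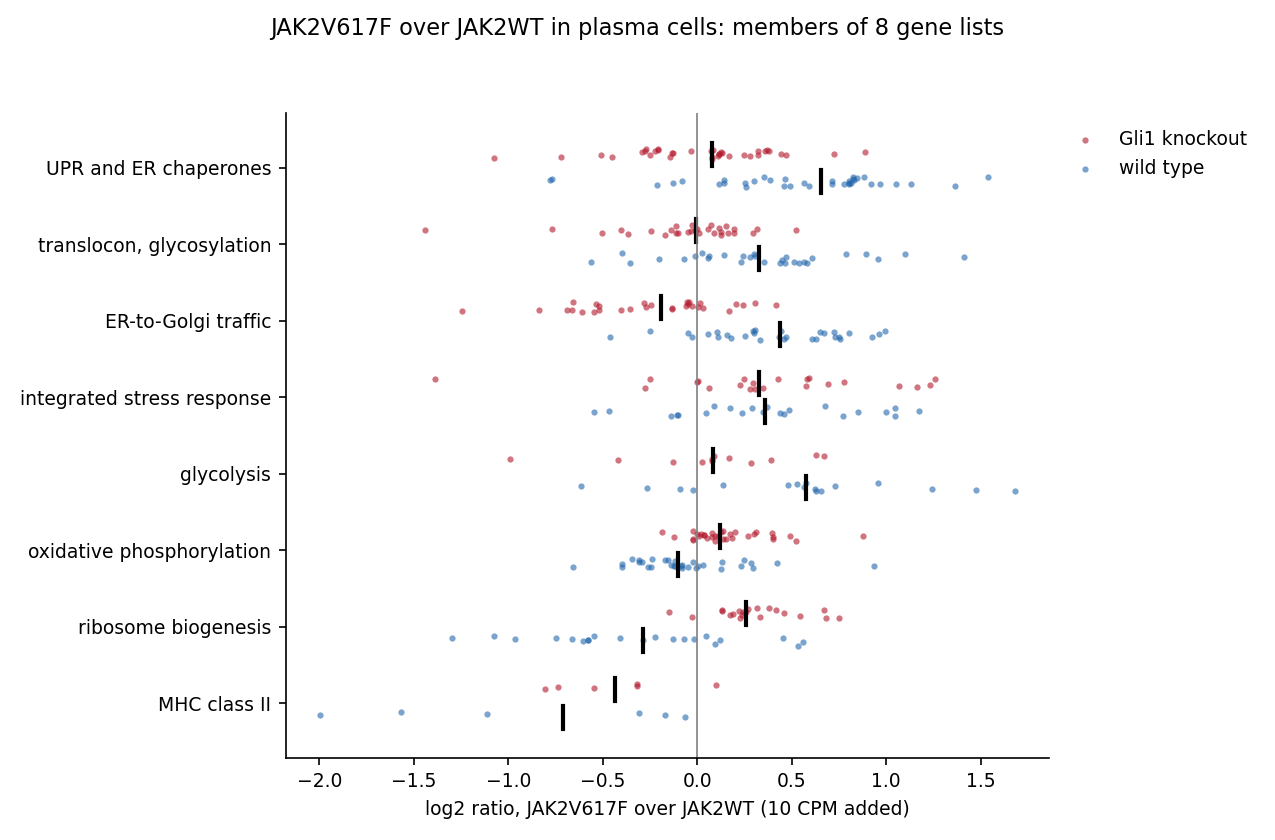
Log2 ratios of JAK2V617F over JAK2WT in the summed plasma cells, with 10 CPM added, for the measured members of 8 gene lists, with Gli1 knockout above wild type and a bar at each median. The UPR and chaperone genes centre on 0.08 in knockout and 0.65 in wild-type marrow, and the MHC class II genes on -0.43 in knockout and -0.71 in wild-type marrow.

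Genes of antigen presentation by MHC class II had medians of -0.43 in knockout and -0.71 in wild-type marrow for JAK2V617F over JAK2WT, over the 6 measured of 10. Of the 6, 5 were below 0 in both genotypes, beside 26.1% of all genes. At least 2-fold lower were 0 of the 6 in knockout marrow, beside 1.97% of all genes, and 3 in wild-type marrow, beside 7.05%. H2-Aa, the class II alpha chain, was at 109.7 CPM in Gli1KO_JAK2V617F, 165 in GLI1KO_JAK2WT, 36.3 in WT_JAK2V617F and 174 in WT_JAK2WT. H2-Eb1 was at 76.4 CPM in Gli1KO_JAK2V617F, 141 in GLI1KO_JAK2WT, 72.6 in WT_JAK2V617F and 169 in WT_JAK2WT. Cd74, the invariant chain and a receptor of Mif, was at 7755 CPM in Gli1KO_JAK2V617F, 9691 in GLI1KO_JAK2WT, 5592 in WT_JAK2V617F and 6297 in WT_JAK2WT. Among IgA cells alone the knockout median was 0.14. Interferon response genes had medians of 0.17 in knockout and 0.44 in wild-type marrow, with 2 of 17 at least 2-fold higher and 1 lower in knockout marrow and 3 of 19 higher in wild-type marrow. JAK-STAT target genes had medians of 0.25 in knockout marrow, with 2 of 14 at least 2-fold higher, and 0.28 in wild-type marrow, with 5 of 18 higher and 1 lower. Over all genes 1.86% were at least 2-fold higher in knockout and 6.02% in wild-type marrow. Genes of ribosome biogenesis had a median of 0.26 in knockout marrow and -0.29 in wild-type marrow, and the nucleolar gene Ncl was at 536 CPM in Gli1KO_JAK2V617F, 424 in GLI1KO_JAK2WT, 332 in WT_JAK2V617F and 499.8 in WT_JAK2WT. Survival and niche receptors had medians of -0.24 in knockout and 0.05 in wild-type marrow. B cell identity genes had medians of 0.28 in knockout and -0.37 in wild-type marrow, with 5 and 6 measured genes, and the wild-type median turned to 0.09 at 100 CPM or more. The regulators of plasma cell fate had medians of 0.01 in knockout and -0.01 in wild-type marrow.

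Gli1, the target of the knockout, was not seen in plasma cells. It had no UMI in any plasma cell of the 4 libraries, where 3 UMIs would correspond to 4.17 CPM in Gli1KO_JAK2V617F, 0.639 in GLI1KO_JAK2WT, 15.5 in WT_JAK2V617F and 1.41 in WT_JAK2WT. The knockout was thus not checked by these cells. Only 4 of 22 hedgehog pathway genes reached 20 CPM, with medians between -0.19 and 0.15 in the 4 comparisons. Jak2 was at 15.3 CPM in Gli1KO_JAK2V617F, 20.7 in GLI1KO_JAK2WT, 20.7 in WT_JAK2V617F and 20.3 in WT_JAK2WT, and 3' counts do not separate V617F from wild-type transcripts. Mif, the cytokine whose receptor includes Cd74, was at 307 CPM in Gli1KO_JAK2V617F, 292 in GLI1KO_JAK2WT, 264 in WT_JAK2V617F and 393 in WT_JAK2WT.

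Gli1 knockout plasma cells with JAK2V617F differed from wild-type ones at least 2-fold in 194 of 1924 measured genes (10.1%), 135 higher (7.02%) and 59 lower (3.07%). The comparison sets 64 cells against 32, and it shares its libraries with the JAK2V617F comparisons above. A count of 30 UMIs stood for 155 CPM in WT_JAK2V617F, against 41.7 CPM in Gli1KO_JAK2V617F, which limits the genes that could be counted as lower. Over genes of at least 20 CPM, with no UMI limit, 419 were higher and 364 lower. The steepest higher genes were Nkg7, Cldn7, Slpi, Ctla2a, Stmn1 and Chst1. For Nkg7, a marker of T and natural killer cells, the median cell of Gli1KO_JAK2V617F was at 0 CPM and the highest at 5078 CPM. IgG cells, in which Slpi and Cldn7 were high, were 23 of 64 plasma cells there, against 2 of 32 in WT_JAK2V617F. The part of single cells and of the class mix in these values was not tested. The steepest lower genes were S100a8, S100a9, Lcn2, Pglyrp1, Tyrobp and Fcer1g, genes of neutrophils and other myeloid cells. S100a8 was at 178 CPM in Gli1KO_JAK2V617F, against 11583 CPM in WT_JAK2V617F, where 1 cell gave 69.2% of its UMIs. Without cells in which neutrophil markers held 1% or more of non-immunoglobulin UMIs, the log2 ratio of S100a9 was 0.52, against -5.91 over all plasma cells. Stmn1, a microtubule regulator of proliferating cells, was at 830.3 CPM in Gli1KO_JAK2V617F, against 192 CPM in WT_JAK2V617F. The list medians were 0.59 for ribosome biogenesis, with 4 of 21 genes at least 2-fold higher and 0 lower, and -0.63 for G2 and mitosis, with 1 of 22 higher and 7 lower (a median that turned to 0.03 at 100 CPM or more), beside -0.02 over all 5981 genes, of which 7.01% were higher and 6.09% lower. UPR and chaperone genes had a median of -0.22.

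Gli1 knockout plasma cells with JAK2WT had the fewest differing genes of the 4 comparisons, with 52 of 2665 measured genes at least 2-fold apart from wild type (1.95%), 14 higher (0.525%) and 38 lower (1.43%). The rank is that of the main settings. This comparison sets 392 plasma cells against 317, while each of the others includes a library of 64 or 32. The part of cell number in the rank was not tested. The count was 137 with IgA cells only and 129 without doublets, where JAK2V617F in knockout marrow had 210. The steepest higher genes were Hspa1a, H2-D1, Chst1, Pon3, Lamp1 and Cnp. Hspa1a was at 215 CPM in GLI1KO_JAK2WT, against 45.3 CPM in WT_JAK2WT, a fold of 4.74-fold (95% counting interval 3.84 to 5.91). H2-D1, an MHC class I heavy chain, was at 3299.9 CPM in GLI1KO_JAK2WT, against 1250.3 CPM in WT_JAK2WT, a fold of 2.64-fold (2.53 to 2.75). It was also higher in the knockout library with JAK2V617F, at 3033 CPM in Gli1KO_JAK2V617F, against 1892 CPM in WT_JAK2V617F. Reads of H2-D1 can be shared with its class I relatives and differ between mouse haplotypes, so its value is uncertain. Pon3, a lactonase, was at 249.9 CPM in GLI1KO_JAK2WT, against 103 CPM in WT_JAK2WT. The steepest lower genes were S100a6, S100a8, S100a9, Lyz2, Cd69 and Vpreb3. Within classes Vpreb3 was nearly level in IgA cells, at 206 CPM in GLI1KO_JAK2WT, against 212 CPM in WT_JAK2WT. It was so in IgM cells as well, at 24.6 against 27.0 CPM. In IgG cells Vpreb3 was lower in GLI1KO_JAK2WT, at 96.2 against 517 CPM. IgA cells were 9.18% of plasma cells in GLI1KO_JAK2WT, against 43.2% in WT_JAK2WT, and the part of the class mix was not tested. Cd69, which retains lymphocytes in tissue, was at 61.8 CPM in GLI1KO_JAK2WT, against 195 CPM in WT_JAK2WT. The neutrophil markers together were at 5548 CPM in GLI1KO_JAK2WT, against 12993 CPM in WT_JAK2WT, and their part in the S100a8, S100a9 and Lyz2 values was not tested. Among IgA cells alone S100a9 had a log2 ratio of 1.44. The UPR and chaperone list had a median of 0.24, beside -0.01 over all 5476 genes, with 0 of 36 genes 2-fold apart in either direction, beside 0.329% higher and 1.02% lower.

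UMIs of Mki67 and Top2a, genes of dividing cells, were found among plasma cells of each library. Cells with at least 2 UMIs of Mki67 and Top2a together were 15.6% in Gli1KO_JAK2V617F (10 of 64, 7.76 to 26.9%), 20.4% in GLI1KO_JAK2WT (80 of 392, 16.5 to 24.7%), 15.6% in WT_JAK2V617F (5 of 32, 5.28 to 32.8%) and 28.1% in WT_JAK2WT (89 of 317, 23.2 to 33.4%). With each cell thinned to 1000 non-immunoglobulin UMIs, the share with at least 1 such UMI was 14.3% in Gli1KO_JAK2V617F, 8.42% in GLI1KO_JAK2WT, 28.1% in WT_JAK2V617F and 18.9% in WT_JAK2WT, and in other cells 25.6% in Gli1KO_JAK2V617F, 36.8% in GLI1KO_JAK2WT, 44.0% in WT_JAK2V617F and 40.2% in WT_JAK2WT. Thinning left out 1 plasma cell of Gli1KO_JAK2V617F. Mki67, a marker of dividing cells, was at 79.1 CPM in Gli1KO_JAK2V617F, 94.4 in GLI1KO_JAK2WT, 233 in WT_JAK2V617F and 166 in WT_JAK2WT. The order of the libraries was different after thinning, and the other cells were above the plasma cells in each library. RNA of other cells and doublets were not removed, so neither an order nor a share of dividing plasma cells is read from these values.

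Recipients were female, and sex-linked transcripts were therefore read as a description of donor and host cells in the libraries that held Y-linked transcripts. In Gli1KO_JAK2V617F, 23 of 64 plasma cells had at least 2 UMIs of the Y-linked genes Ddx3y, Eif2s3y, Kdm5d and Uty without Xist, and 1 had Xist alone, so 4.17% of the 24 cells with either alone carried Xist (0.105 to 21.1%). Among its other cells the share was 1.14% (36 of 3170). In GLI1KO_JAK2WT, 156 of 392 plasma cells were Y-linked only, 15 Xist only and 10 had both (at least 1 UMI of each). Xist alone was thus at 8.77% of 171 (4.99 to 14.1%), against 3.71% of 1993 in other cells (2.93 to 4.64%). Of the plasma cells of GLI1KO_JAK2WT, 30 were among the highest doublet scores of that library. By class in GLI1KO_JAK2WT, Xist alone was found in 4 of 12 IgA cells with either alone (33.3%, 9.92 to 65.1%), 11 of 143 IgM cells (7.69%, 3.90 to 13.3%) and 0 of 14 IgG cells, where 3 counts would be 21.4%. In the wild-type libraries, 17 of 32 plasma cells of WT_JAK2V617F and 274 of 317 of WT_JAK2WT had Xist and none had Y-linked transcripts, so donor and host cannot be told apart there. After thinning to 1000 non-immunoglobulin UMIs and at 1 UMI, Xist alone was at 11.1% of plasma cells with either alone in Gli1KO_JAK2V617F (1 of 9) and 15.9% in GLI1KO_JAK2WT (10 of 63), against 4.08% of such other cells in Gli1KO_JAK2V617F and 11.4% in GLI1KO_JAK2WT.

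**Figure D5:**
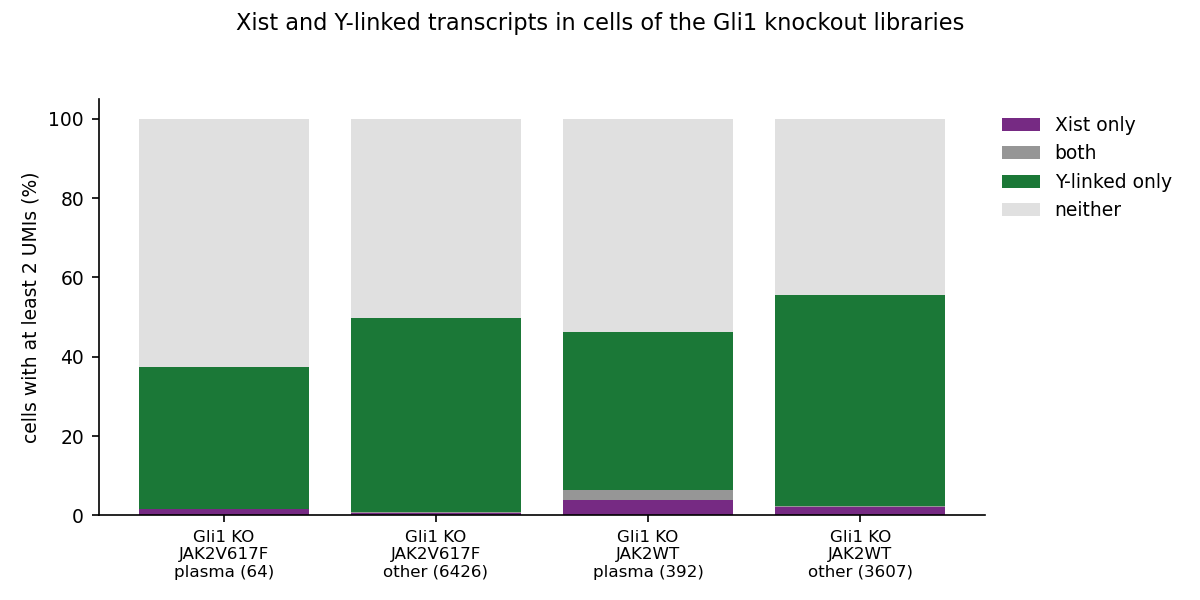
Plasma cells and other passing cells of the Gli1 knockout libraries by transcripts of Xist and of 4 Y-linked genes, as percentages of all cells of each bar. Xist only and Y-linked only stand for at least 2 UMIs of that kind and none of the other. Both stands for at least 1 UMI of each kind, and neither for the remaining cells. Most cells with a call are Y-linked only, and Xist-only plasma cells number 1 in Gli1KO_JAK2V617F and 15 in GLI1KO_JAK2WT.

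GFP transcripts, which mark transduced cells, were seen in 1 of 64 plasma cells of Gli1KO_JAK2V617F (1.56%), 3 of 392 of GLI1KO_JAK2WT (0.765%), 0 of 32 of WT_JAK2V617F (where 3 counts would be 9.38%) and 1 of 317 of WT_JAK2WT (0.315%). In the other cells of the same libraries GFP was seen in 1.01% in Gli1KO_JAK2V617F, 0.111% in GLI1KO_JAK2WT, 2.75% in WT_JAK2V617F and 0.574% in WT_JAK2WT. These shares are too low in all cells to tell transduced plasma cells from untransduced ones.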

How the data were processed

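Marrow cells were profiled with 10x Genomics Single Cell 3' v3.1. The values analysed are raw UMI counts per gene and cell, deposited with cell barcodes already called and no normalisation. Per the submitters' processing notes, Cell Ranger 4.0.0 and mm10 were used, and Seurat 4.0.4 is named with no role. Each of the 4 matrices held 31054 features, of which 30934 had a position in GENCODE M21 (GRCm38, the assembly of mm10).

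Groups came from the sample titles. UMIs of plasma cells were summed per library without 392 immunoglobulin genes and scaled to a total of 1000000 (CPM). A pseudocount of 10 CPM was used for log2 ratios, and genes counted as 2-fold apart had a log2 ratio of at least 1 or at most -1, with at least 50 CPM and 30 UMIs in the higher library. For IgA against IgM the limits were 100 CPM and 30 UMIs in the higher class of every library used. Gene lists used members of at least 20 CPM in either library. Shares have exact Clopper-Pearson intervals, CPM exact Poisson intervals, a count of 0 the limit that 3 counts would give, and ratios of shares log-normal intervals. Doublets were kept, and an alternative removed the highest Scrublet scores, 0.8% per 1000 barcodes. The ratio, its interval and the 2-fold call were run on simulated independent Poisson counts per gene. Those counts hold no spread between cells, so the interval was not tested for it. Python 3.11.15, numpy 2.4.6, scipy 1.17.1, pandas 2.3.3, scanpy 1.11.5 and matplotlib 3.10.9 were used.

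Named genes were, per comparison, the 6 highest and 6 lowest log2 ratios among genes of at least 100 CPM and 30 UMIs with a UMI in at least 20% of the plasma cells of the higher library; the 20 highest mean CPM; the 20 steepest over other cells; the extremes of each list; the extremes of IgA over IgM; and a fixed set of markers and targets. The genes 2-fold apart in both JAK2V617F comparisons, and Hsp90b1, Atf4 and other members of the lists, were named beyond this rule, after their values were seen. Mitochondrial, ribosomal protein, predicted, haemoglobin, sex-linked and immunoglobulin genes were not eligible. The members, the 22 gene lists and the 11 lists of other cell types were chosen with earlier results of these data known. The IgA against IgM test needed 3 libraries with at least 10 cells of both classes, and 2 had them. Promoters came from the RefSeq table for GRCm38.p6, where 29 of 36 UPR and chaperone genes matched.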

Additional observations from a re-analysis of the deposited data

Results flagged for a closer look

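In 8 named genes the JAK2V617F over JAK2WT ratio was above 1 in one genotype and below 1 in the other, each with a counting interval that excluded 1. They come from the extremes of each comparison and a fixed set, so their number is no share of all genes. Of 1728 genes measured in both, 2 were 2-fold higher in knockout and 2-fold lower in wild type (0.116%), and 5 the reverse (0.289%). In the same direction in both, 8 were 2-fold higher (0.463%) and 15 lower (0.868%). The difference between the genotypes was not tested, since each value comes from 1 library. Given as the log2 ratio in Gli1 knockout minus that in wild type, the difference was 2.99 for Cdk6 and 2.75 for Stmn1, genes of cell division. Cdk6 rests on 2 UMIs in WT_JAK2V617F, and 1 cell gave 20.1% of the Stmn1 UMIs of Gli1KO_JAK2V617F. It was -0.71 for H2-D1, the MHC class I gene with log2 ratios of -0.12 in knockout and 0.59 in wild type. It was -3.59 for S100a8, -3.76 for S100a9, -3.21 for Lcn2, -2.86 for Pglyrp1 and -2.13 for Tyrobp, genes of neutrophils and other myeloid cells. The 10 neutrophil markers together were at 1469 CPM in Gli1KO_JAK2V617F, 5548 in GLI1KO_JAK2WT, 31407 in WT_JAK2V617F and 12993 in WT_JAK2WT among plasma cells, and at 28075 CPM in Gli1KO_JAK2V617F, 14804 in GLI1KO_JAK2WT, 27943 in WT_JAK2V617F and 19601 in WT_JAK2WT among the other cells, with all 10 detected in the plasma cells of each. In WT_JAK2V617F, 1 cell gave 70.2% of the S100a9 UMIs, and without the cells of 1% or more neutrophil marker UMIs the S100a9 ratio in wild type was -0.03. The part of the neutrophil markers in these 5 values was not tested.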

How the results depend on the processing

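Of 24 alternative values of the share ratios, 20 moved by less than their counting error. The ratio of Gli1 knockout over wild type with JAK2WT was 3.04 with cells of up to 20% mitochondrial UMIs, 3.15 with a stricter rule of membership (20 Jchain UMIs, 3 Xbp1 UMIs and 30% immunoglobulin) and 1.54 with a looser one (3 Jchain UMIs, no Xbp1 limit and 5%), and that of JAK2V617F in wild type was 0.147 with the looser rule. The class shares stayed within 1 interval in 32 of 32 alternatives each for IgA, IgM and IgG. Lambda in WT_JAK2WT was 11.4% without cells of 1% or more neutrophil marker UMIs, an alternative chosen after seeing the data. Thinning to 1000 non-immunoglobulin UMIs left few cells with 2 sex-linked UMIs, and Xist alone was then 0% in Gli1KO_JAK2V617F (0 of 1) and 42.9% in GLI1KO_JAK2WT (3 of 7).

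The number of genes 2-fold apart depended on filters. In the order JAK2V617F in knockout, JAK2V617F in wild type, Gli1 knockout with JAK2V617F and Gli1 knockout with JAK2WT, it was 48, 87, 78 and 26 with 50 CPM added, 259, 1088, 1119 and 90 with no minimum, and 63, 129, 107 and 30 at 100 CPM or more. For knockout against wild type with JAK2WT it was 83 with the looser rule, 129 without doublets, 85 with mean CPM per cell, 137 with IgA cells only and 82 without cycling cells. Without doublets it was 210 for JAK2V617F in knockout, and without cycling cells 125 for knockout with JAK2V617F.

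Of 1380 list medians under alternatives, 1215 moved little, 156 moved by 0.2 or more, and 9 of at least 0.3 in size changed sign. The UPR median was 0.89 for JAK2V617F in wild type and 0.45 for knockout with JAK2WT under the looser rule, and -0.51 for knockout with JAK2V617F with mean CPM per cell. For knockout against wild type with JAK2WT, G2 and mitosis turned to 0.0509 with the stricter rule, B cell identity to 0.0924 with the looser rule, 0.28 with IgA cells and 0.18 at 100 CPM, and glycolysis to -0.00866 without doublets and -0.21 with IgA cells. At 100 CPM, B cell identity turned to 0.0899 for JAK2V617F in wild type and G2 and mitosis to 0.0297 for knockout with JAK2V617F. MHC class II turned to 0.14 for JAK2V617F in knockout with IgA cells.

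Among named genes 8 of 650 values turned round. With IgA cells only, Irf8 was 0.0784 for JAK2V617F in knockout, Slpi -0.28 for knockout with JAK2V617F, and S100a9 1.44, S100a8 1.39 and Lyz2 1.33 for knockout with JAK2WT. Without cells of neutrophil markers, S100a9 was -0.0280 for JAK2V617F in wild type and 0.52 for knockout with JAK2V617F, and Tyrobp 0.13. The cause of these moves was not tested. Genes 2-fold higher in IgA cells numbered 19 and lower 24 with no filter, and with 1 library left out the higher ones numbered 18 to 28 and the lower ones 26 to 30. With 1 library left out, a gene had to pass the limits in the remaining library only, so these counts are not limited to the 1215 genes. Median-of-ratios scaling moved the median of all genes by under 0.1. DESeq2, TMM and the fits with and without the library as a block were not run, because 2 libraries qualified. No paired analysis was possible because each group is 1 library with no shared replicates. The 32 and 64 plasma cells of the JAK2V617F libraries set the depth: 3 UMIs stand for 15.5 CPM in WT_JAK2V617F, so low genes there could not be measured.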

Other observations

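The surface proteins of the Ly6 family differed among plasma cells of the 4 libraries. Ly6d was at 2405 CPM in Gli1KO_JAK2V617F, 1848 in GLI1KO_JAK2WT, 793 in WT_JAK2V617F and 1632 in WT_JAK2WT. Ly6k was at 372 CPM in Gli1KO_JAK2V617F, 122 in GLI1KO_JAK2WT, 311 in WT_JAK2V617F and 292 in WT_JAK2WT, and Ly6c2 at 443 CPM in Gli1KO_JAK2V617F, 760.1 in GLI1KO_JAK2WT, 513 in WT_JAK2V617F and 759 in WT_JAK2WT. The list had medians of -0.62 for JAK2V617F in Gli1 knockout marrow and -0.56 in wild-type marrow. Ly6a in IgG cells was at 846 CPM in Gli1KO_JAK2V617F, 5555 in GLI1KO_JAK2WT and 5113 in WT_JAK2WT, so it was lowest in the IgG cells of Gli1KO_JAK2V617F, which were high in Slpi. The 2 IgG cells of WT_JAK2V617F are left out.

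Of the survival and niche receptor list, 2 of 21 genes were at least 2-fold higher and 0 lower with JAK2V617F in Gli1 knockout marrow (1.86% and 1.97% of all genes), and 0 of 22 higher and 3 lower in wild-type marrow (6.02% and 7.05%). Bcl2, which blocks cell death, was at 91.6 CPM in Gli1KO_JAK2V617F, 143 in GLI1KO_JAK2WT, 51.8 in WT_JAK2V617F and 124 in WT_JAK2WT. Mcl1, the family member on which plasma cells depend in mice, was at 494 CPM in Gli1KO_JAK2V617F, 633 in GLI1KO_JAK2WT, 606 in WT_JAK2V617F and 470.1 in WT_JAK2WT. Klf2, a factor of lymphocyte trafficking, was at 183 CPM in Gli1KO_JAK2V617F, 216 in GLI1KO_JAK2WT, 523 in WT_JAK2V617F and 291 in WT_JAK2WT. The stress gene Dnaja1, a partner of Hsp70 chaperones, was at 219 CPM in Gli1KO_JAK2V617F, 443 in GLI1KO_JAK2WT, 166 in WT_JAK2V617F and 334 in WT_JAK2WT, lower in each JAK2V617F library than in its JAK2WT library. Ccr10 over all plasma cells was at 121 CPM in Gli1KO_JAK2V617F, 41.8 in GLI1KO_JAK2WT, 161 in WT_JAK2V617F and 106 in WT_JAK2WT, the same order of libraries as for the share of IgA cells.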
